A study of Mus musculus with 4 samples.

Results

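Cebpe-high granulocyte progenitors with few or no transcripts of the secondary granule genes Camp, Ngp and Lcn2 were described in mouse fetal liver at E14.5. A cell counted as Cebpe-high when Cebpe took at least 4 UMIs (unique molecular identifiers, the count of captured RNA molecules) per 10000 of the cell's UMIs. It also had to hold fewer than 5 UMIs of Camp, Ngp and Lcn2 together, fewer than 3 of Prg2 and Prg3 together and fewer than 2 of Cpa3. The limits remove cells with more than a few of these transcripts of secondary granules, of eosinophil granules or of mast cells. Of 9960 cells, 795 met the rule (7.98%), 730 from the wild type and 65 from embryos of genotype Gata2-77-/-. These embryos lack an enhancer of the transcription factor gene Gata2 on both alleles, all embryos were of strain C57Bl/6J, and each genotype gave 2 libraries. The cells had been sorted as Lin-Sca-cKit+Cd34+, a gate that keeps progenitors carrying Kit and CD34, and were sequenced on the 10x Genomics Chromium platform. Libraries keep their deposited letters, F and I for wild-type embryos, A and B for embryos without the enhancer. The letters are not tied to sample numbers, and the series describes separate embryos. Should libraries share embryos, each p-value would cover only the spread among libraries, which may be technical.

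Neutrophils are built in stages that are named for the granules they make. Promyelocytes fill primary granules with myeloperoxidase (Mpo) and the serine proteases neutrophil elastase (Elane), cathepsin G (Ctsg) and proteinase 3 (Prtn3). C/EBPε, the product of Cebpe, is the transcription factor needed for the next stage, when cells make secondary granules with the antimicrobial proteins Camp, Ngp and Lcn2. Gfi1, a repressor, and Irf8, a factor of the monocyte and dendritic lineages, act in opposite directions where granulocyte and monocyte fates part.

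The deposited table held 3624 genes. The median Cebpe-high cell held 12173 (F), 16538 (I), 6180 (A) and 5653 (B) UMIs, so the enhancer-deleted cells were the shallower ones, as were their whole libraries (medians over all cells 7492 and 7087, against 12826.5 and 17437.5). Summed over Cebpe-high cells, the libraries held 5924734 (F), 4304444 (I), 199337 (A) and 236507 (B) UMIs. Levels are UMIs of a gene per 1000000 UMIs of these sums (CPM). A level that rests on 3 UMIs is 0.506 CPM in F and 0.697 in I, but 15.05 in A and 12.7 in B, so genes below about that level could not be read in the enhancer-deleted cells. Mitochondrial transcripts took 3.39% to 3.56% of the UMIs of Cebpe-high cells in the 4 libraries. Xist was present in libraries I and B and near 0 in F and A. No doublet call was used, and among Cebpe-high cells 3 of 479 in library F, and 0 in the other libraries, exceeded 2 times their library's median UMIs.

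Cebpe-high cells made up a smaller share of both enhancer-deleted libraries. They were 479 of 3042 cells in library F (15.7%, 95% exact binomial interval 14.47 to 17.1%) and 251 of 1938 in I (12.95%, 11.5 to 14.53%). They were 29 of 2235 in A (1.30%, 0.871 to 1.86%) and 36 of 2745 in B (1.31%, 0.920 to 1.81%). The intervals cover counting error only. The genotypes did not overlap, and the mean share was 14.3 ± 1.98% for wild-type and 1.30 ± 0.00986% for enhancer-deleted libraries (SD, n = 2 each), 11.0-fold lower. With 2 libraries against 2, the exact two-sided permutation test gave p = 0.333, the smallest it can give. After each cell had been thinned at random to 4346 UMIs before the rule was applied, the shares were 19.7% and 16.0% against 2.34% and 1.88%, 8.47-fold lower. The cells deep enough for this numbered 2931, 1909, 1837 and 2288 in F, I, A and B. All shares are of sorted cells, so cells outside the Kit and CD34 gate are not counted.

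**Figure D1:**
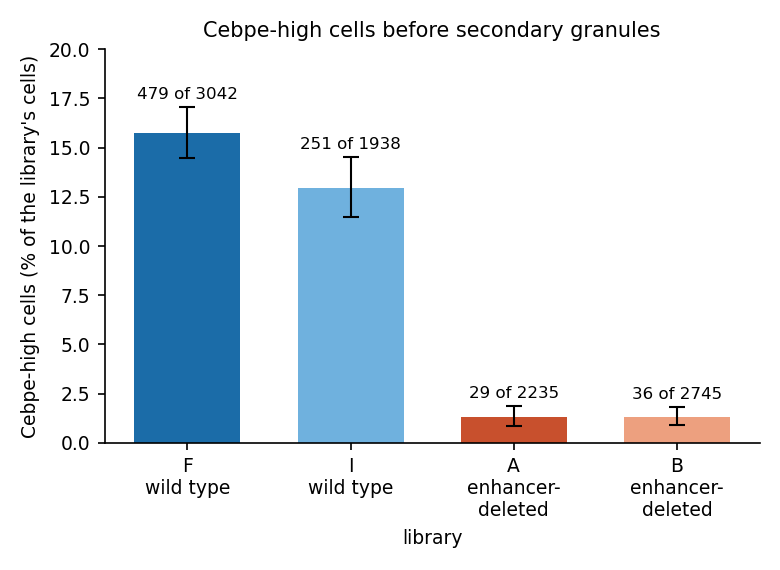
Share of each library's cells that were Cebpe-high with few or no transcripts of Camp, Ngp and Lcn2 (vertical axis, percent). The number of cells stands above each bar, and 95% exact binomial intervals are drawn. The wild-type libraries stand at 15.7% and 12.95%, the enhancer-deleted libraries at 1.30% and 1.31%.

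The limits on other transcripts removed cells almost only from the wild type. Before these limits, the Cebpe level was reached by 718, 357, 30 and 37 cells (F, I, A, B). The secondary granule limit took out 176, 51, 1 and 1 of them, the Prg2 and Prg3 limit 44, 28, 0 and 0, and the Cpa3 limit 40, 37, 0 and 0 (F, I, A, B). A shallow cell passes the Cebpe limit on few molecules. The median Cebpe count was 8 and 10 UMIs in libraries F and I but 4 and 3 in A and B, and 3 or fewer Cebpe UMIs placed 38 of 479, 3 of 251, 13 of 29 and 20 of 36 cells in the set. With at least 3 Cebpe UMIs asked for as well, a setting chosen after the data had been seen, the share was 13.7-fold lower.

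Elane and Ms4a3 were close in cells just inside and just outside the Cebpe limit in the wild type. Between 4 and 5 Cebpe UMIs per 10000, the 114 and 64 cells of libraries F and I held Elane at 7577 and 5810 CPM and Ms4a3 at 1708 and 1633 CPM. Between 3 and 4, just outside, 129 and 58 cells held Elane at 7359 and 5688 CPM and Ms4a3 at 1647 and 1424 CPM. S100a8 stood at 4195 and 4069 CPM inside and 2738 and 4109 CPM outside, and Irf8 at 52.7 and 45.7 CPM inside and 75.2 and 108 CPM outside. In libraries A and B, 11 and 15 cells lay just inside, with Elane at 2708 and 2212 CPM, and 21 and 29 lay just outside, at 2750 and 2721 CPM. At the other limit, wild-type cells with 3 or 4 UMIs of Camp, Ngp and Lcn2 (41 and 10 cells) held S100a8 at 15304 and 13238 CPM, and Cebpe-high cells with 5 to 9 such UMIs (33 and 11 cells) held 17449.5 and 15346 CPM.

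The Cebpe-high cells carried the markers of the promyelocyte stage. Elane reached 7596 CPM in library F, 5981 in I, 4655 in A and 3374 in B, and the other cells of the same libraries 2362, 1494, 560 and 427. Ctsg stood at 5024, 4269, 3798 and 3184 CPM in the same order, against 1705, 1453, 863 and 814 in the other cells. Ms4a3, a membrane protein of committed granulocyte and monocyte progenitors, stood at 1763, 1687, 1395 and 1548 CPM, against 517, 400 and, in A and B, 202 and 185. All 3 markers were higher than in the other cells of each library, a description for which no test is given. Thinned to 4346 UMIs, 95.7% to 99.1% of Cebpe-high cells had an Elane UMI and 96.2% to 100% an Ms4a3 UMI. In cells with Klf1 and Gata1, erythroid cells that should lack both, at a median depth of 13364 UMIs before thinning, the shares were 18.4% and 8.62%.

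Further genes that the rule did not name followed the same pattern. Among genes with at least 20 CPM in the Cebpe-high cells of every library, Gstm1, a glutathione transferase, had the highest smallest ratio to other cells, from 4.13 in F to 6.64 in B. Prss57, a serine protease of primary granules, had ratios of 3.50 to 9.10. The repressor gene Gfi1 had ratios of 3.27 to 5.88 over other cells, at 44.1, 45.3, 25.1 and 25.4 CPM in F, I, A and B. These genes were picked by their ratios after the values had been seen. Cebpe (chromosome 14, 54710360 to 54712174, minus strand) and Ctsg (56099881 to 56102574, minus strand) lie on the same chromosome, as do Elane (chromosome 10, 79886247 to 79888215, plus strand) and Prtn3 (79874476 to 79883174, plus strand), in mm10 coordinates.

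Neighbouring populations of the same libraries set the scale. Mpo-high cells held Mpo at 10 or more UMIs per 10000 and no UMI of Cebpe or Irf8 (55, 24, 75 and 161 cells in F, I, A and B). Secondary-granule cells held 5 or more UMIs of Camp, Ngp and Lcn2 (199, 58, 3 and 1 cells). Mpo itself was at 1539 to 1659 CPM in the Mpo-high cells and at 2708, 2827, 2453 and 1924 CPM in the Cebpe-high cells. Ms4a3 was at 246, 192, 335 and 299 CPM in Mpo-high cells, and at 1906 and 1997 CPM in the secondary-granule cells of F and I, close to its level of 1763 and 1687 in the Cebpe-high cells. Ctsg was lower in the secondary-granule cells than in the Cebpe-high ones, at 2867 and 2350.01 CPM in F and I. Summed, the 21 primary granule genes were close in both. They stood at 39254.5 and 38037 CPM in secondary-granule cells of F and I, and at 39933 and 36507 CPM in Cebpe-high ones.

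Genes of later neutrophil stages were present in the Cebpe-high cells. S100a8, a calprotectin subunit that fills the cytosol of neutrophils, stood at 5549, 5029, 5262 and 3805 CPM in F, I, A and B. In Mpo-high cells it stood at 591, 39.9, 329 and 49.3 CPM, and in secondary-granule cells of F and I at 23145 and 24914.5 CPM. Fcnb, a ficolin of neutrophil granules, was at 307, 191, 221 and 88.8 CPM in Cebpe-high cells, against 1519 and 955 CPM in the secondary-granule cells of F and I. The Cebpe-high cells thus lay between both populations for these genes. The rule used neither gene, but its limit on Camp, Ngp and Lcn2 divides Cebpe-high from secondary-granule cells. How far this limit sets the lower level in Cebpe-high cells was not tested. Camp itself stood at 34.1 and 15.3 CPM in Cebpe-high cells of F and I against 6221 and 4842 CPM in secondary-granule cells, a gap that the rule sets.

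**Figure D2:**
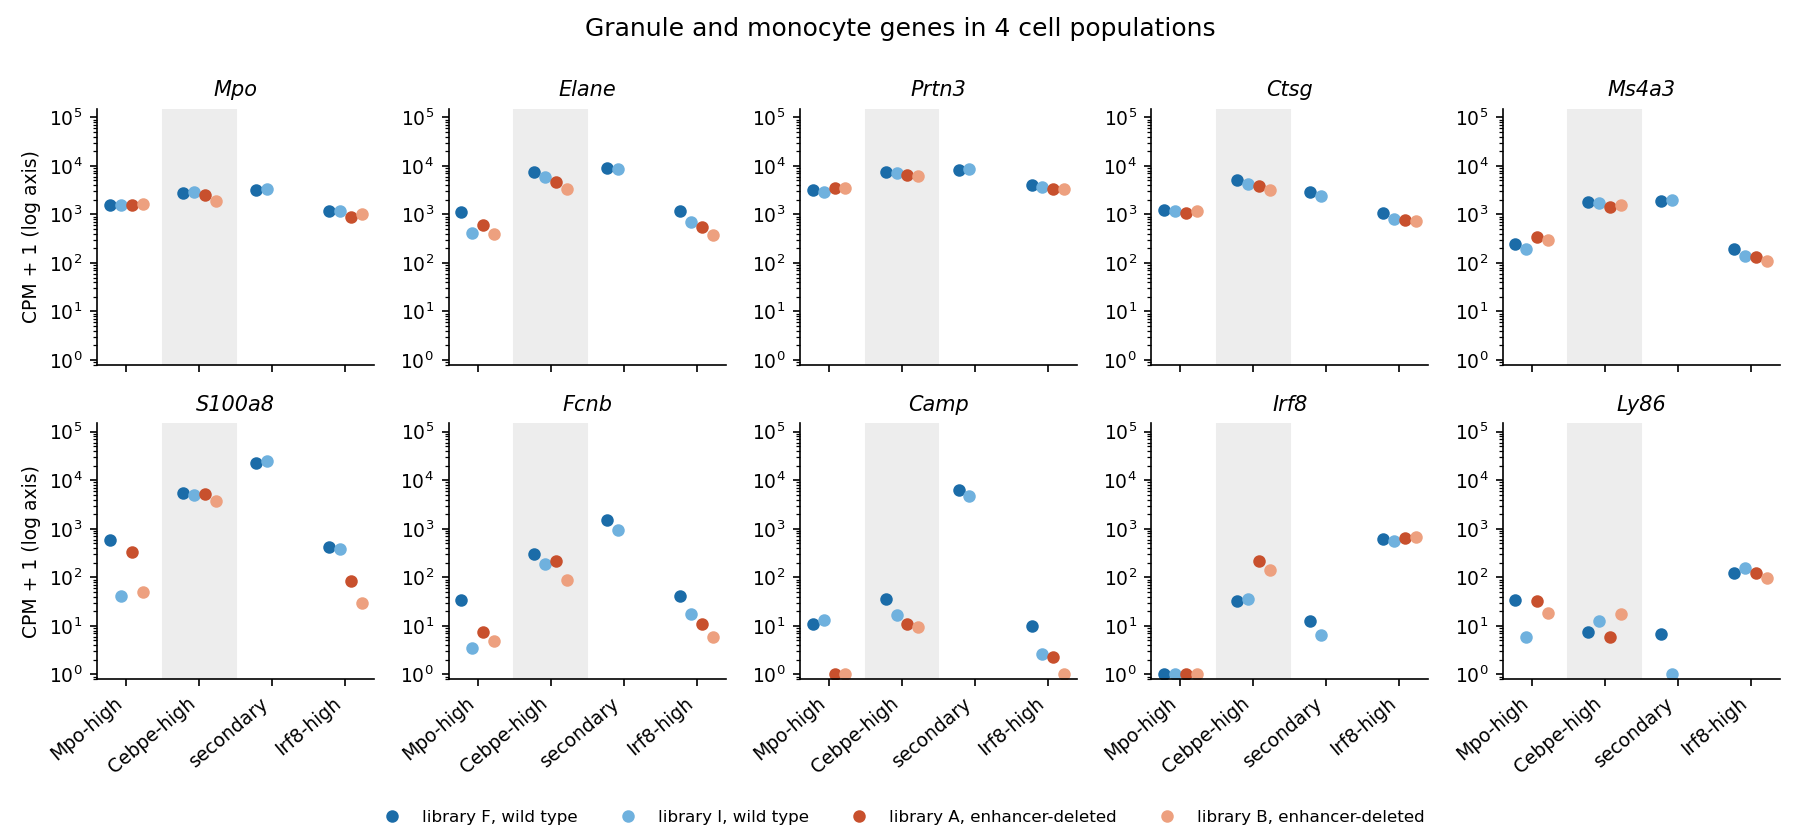
Levels of granule genes and of the monocyte genes Irf8 and Ly86 (CPM + 1, log axis) in Mpo-high, Cebpe-high (shaded), secondary-granule and Irf8-high cells, 1 point per library. Secondary-granule cells of libraries A and B (3 and 1 cells) are not drawn. Irf8 is at 0 in Mpo-high cells because the definition of these cells requires it. In the shaded column S100a8 and Fcnb lie between the Mpo-high and the secondary-granule cells, and Irf8 is higher in the enhancer-deleted libraries.

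Marker lists of other lineages differed in how far they were seen in the Cebpe-high cells. The 17 measured erythroid markers summed to 50.2 to 139 CPM over the 4 libraries, against 3152 and 4779 CPM in the other cells of F and I, and 13 and 10 of them were at 0 in A and B. The 4 megakaryocyte markers summed to 4.23 to 24.0 CPM. Of 19 monocyte markers the sum was 1037, 1060, 1931 and 1159 CPM in F, I, A and B, against 2584 to 2845 CPM in Irf8-high cells without Cebpe and 1397, 1355, 1596 and 1479 CPM in all other cells, so that library A was above its other cells. The 6 basophil and mast cell markers summed to 204, 194, 115 and 106 CPM, against 215, 200.3, 73.6 and 72.8 CPM in all other cells. Ly86, a partner of a Toll-like receptor in monocytes and dendritic cells, was at 6.41, 11.8, 5.02 and 16.9 CPM, against 96.9 to 152 CPM in Irf8-high cells. Gata2 stood at 9.62, 6.97, 5.02 and 0 CPM in F, I, A and B, where A and B lie below the level of 3 UMIs, so no difference was detectable at this depth.

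Within the Cebpe-high cells, a trace of secondary granule transcripts went with more of the other late genes. At least 1 UMI of Camp, Ngp or Lcn2 was present in 37.0% of cells in library F, 29.9% in I, 31.0% in A and 16.7% in B. In F and I, cells with 1 to 4 such UMIs held S100a8 at 10004 and 9642 CPM, against 2894 and 3095 CPM in cells with none. Fcnb stood at 565 and 423 CPM against 154 and 94.0 CPM. Both genes were thus more than 3 times higher in the cells with a trace in each wild-type library. Elane moved less, from 6586 and 5006 CPM to 9290 and 8305 CPM, and Ctsg from 4799 and 4078 CPM to 5401 and 4724 CPM. Cd34, the stem and progenitor sialomucin used in the sort, went the other way, from 82.7 and 129 CPM to 52.4 and 77.1 CPM. The median depth of cells with and without a trace was 12173 and 12178 UMIs in F and 15813 and 17051.5 in I. The split uses genes of the rule and is given without a test.

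**Figure D3:**
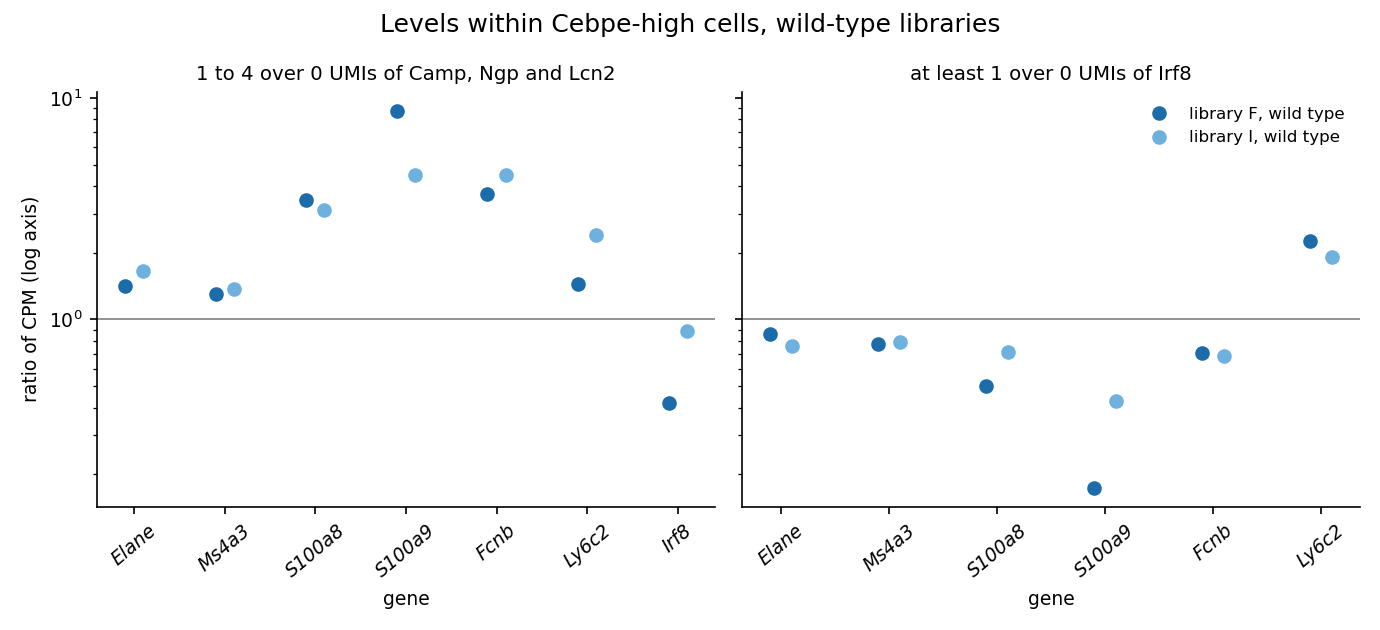
Ratio of levels between subsets of Cebpe-high cells in the wild-type libraries F and I (log axis, the line marks a ratio of 1). Left, cells with 1 to 4 over cells with 0 UMIs of Camp, Ngp and Lcn2; right, cells with at least 1 over cells with 0 UMIs of Irf8. S100a8, S100a9 and Fcnb lie above the line on the left and below it on the right, and Ly6c2 lies above it in both.

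S100a8 differed between bands of the Cebpe level in both genotypes. Between 4 and 5 Cebpe UMIs per 10000, S100a8 stood at 4195 and 4069 CPM in F and I but at 1664 and 536 CPM in A and B (11 and 15 cells). Between 6 and 8, it stood at 4897, 4833, 10752 and 15923 CPM (159, 62, 5 and 4 cells). At 8 or more, it stood at 7491, 6732, 8056 and 6613 CPM in F, I, A and B (117, 62, 4 and 10 cells). The enhancer-deleted libraries were the lower ones between 4 and 5 and the higher ones between 6 and 8, and the genotypes overlapped at 8 or more. Elane stood at 7577, 5810, 2708 and 2212 CPM between 4 and 5 and at 8210, 6818, 8619 and 3961 CPM at 8 or more. These bands use the rule's own gene and were not tested.

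Within Cebpe-high cells, few genes differed between genotypes at this depth. UMIs were summed over the cells of each library and 3530 genes were tested with edgeR's quasi-likelihood test, at a Benjamini-Hochberg adjusted p under 0.05. In all 15 genes passed, 0.425% of those tested, 4 of them higher (0.113%) and 11 lower (0.312%) where the enhancer was deleted. With library totals in place of TMM scaling, 29 genes were higher and 24 lower. At an unadjusted p under 0.05 there were 503 genes (14.2%), and DESeq2's Wald test called 34. In 49.7% of genes tested (32.2% higher and 17.5% lower) the libraries of the genotypes did not overlap, so the absence of overlap says little with 2 libraries each. Without library F or without library I no gene passed edgeR's test, with 189 and 273 genes at an unadjusted p under 0.05, and all 15 kept their direction. Without A 170 genes passed and without B 68, all 15 among them each time.

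The 4 genes that rose were Irf8, Ifitm3, Fabp5 and 2810417H13Rik. Irf8 (chromosome 8, 120736358 to 120756694, plus strand) stood at 31.2 (F), 34.4 (I), 216 (A) and 144 CPM (B), from 185, 148, 43 and 34 UMIs. The genotypes did not overlap, and the fitted difference was 5.03-fold (log2 fold change 2.33, SE 0.24, edgeR adjusted p = 0.00219, higher in 2 of 2 enhancer-deleted libraries). Without library F its adjusted p was 0.753 and without I 0.556, and over 15 alternatives it ran from 8.56e-13 to 0.985. Ifitm3, an interferon-induced membrane protein, stood at 31.4, 21.8, 100 and 135 CPM in F, I, A and B (log2 2.02, SE 0.32, adjusted p = 0.0165). Fabp5, a fatty acid binding protein, stood at 112, 144, 296 and 465 CPM (log2 1.49, SE 0.19, adjusted p = 0.00555). 2810417H13Rik, the PCNA-associated factor of replicating cells, stood at 337, 368, 622 and 706 CPM (log2 0.81, SE 0.13, adjusted p = 0.0165). For each of these genes both enhancer-deleted libraries lay above both wild-type ones. With a term for libraries with Xist, edgeR's adjusted p was 0.0666 for Ifitm3 and 0.0868 for 2810417H13Rik, and in thinned cells it was 0.114 for the latter.

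The 11 genes that fell included granule and enzyme genes. Hdc, which makes histamine and is also expressed in developing neutrophils, had the steepest fall, from 115 and 104 CPM in F and I to 35.1 and 29.6 in A and B (log2 -1.88, SE 0.29, adjusted p = 0.0165). Its values in A and B rest on 7 UMIs each. Alas1, the first enzyme of heme synthesis outside erythroid cells, stood at 215, 218, 90.3 and 63.4 CPM (log2 -1.62, SE 0.21, adjusted p = 0.00555). Apoe, a lipid carrier, stood at 392, 367, 166 and 123 CPM (log2 -1.52, SE 0.19, adjusted p = 0.00555). Cd63, a tetraspanin of the primary granule membrane, fell from 1045 and 875 to 462 and 452 CPM (log2 -1.18, SE 0.16, adjusted p = 0.00555). In every case the 2 enhancer-deleted values lay below both wild-type ones. The cysteine protease inhibitor genes Stfa1 (2742, 2760, 1650 and 1370 CPM) and BC100530 (1279, 933, 441 and 592 CPM) fell by 0.97 and 1.20 on the log2 scale (adjusted p = 0.0131 and 0.0165). These stefins belong to a family of near-identical copies whose reads could be split between genes, so their values are uncertain. B4galt6, Adssl1, S100a11, Tmed3 and the elongation factor gene Eef2 also fell, with log2 fold changes from -1.59 (B4galt6) to -0.80 (Eef2) and adjusted p from 0.0154 (S100a11) to 0.0333 (Eef2). The B4galt6 values in A and B rest on 6 and 8 UMIs. With the Xist term 7 of the 15 genes passed, and Hdc, B4galt6, BC100530, Adssl1 and Tmed3 were among those that did not. The log2 fold changes of these 5 genes under that term were -1.86, -1.58, -1.17, -1.14 and -0.92. In thinned cells 11 of the 15 passed.

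**Figure D4:**
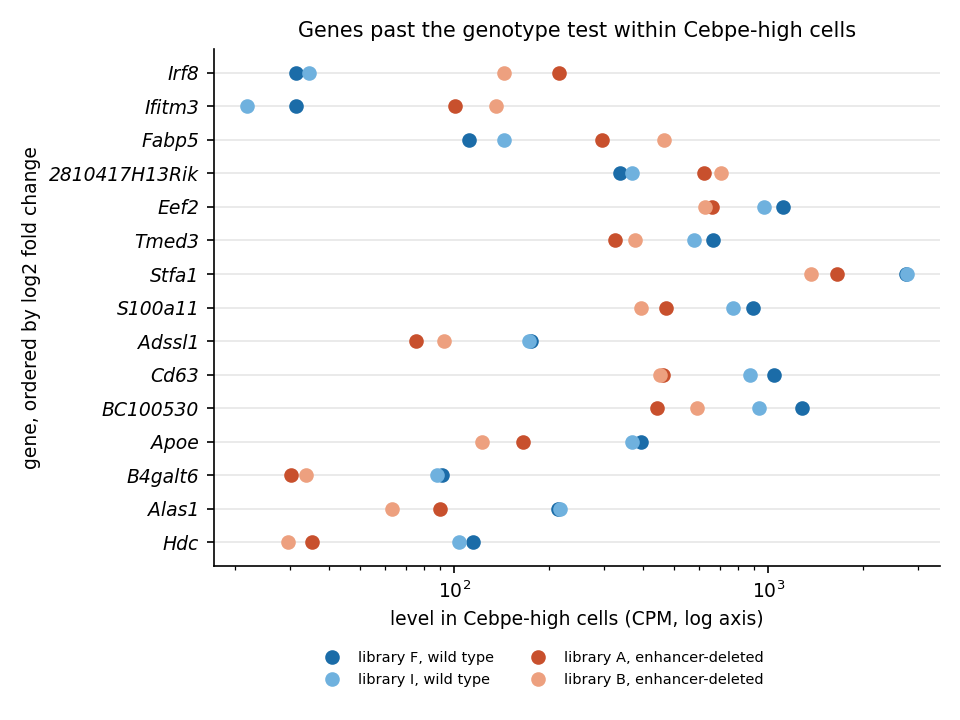
Level in Cebpe-high cells (CPM, log axis) of the 15 genes that passed the genotype test, 1 point per library, ordered by fitted log2 fold change. For the top 4 genes both enhancer-deleted libraries lie to the right of both wild-type libraries, and for the other 11 they lie to the left.

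The marker genes of the cells did not pass the test. Elane, at 7596 and 5981 CPM in F and I against 4655 and 3374 CPM in A and B, had a log2 fold change of -0.86 (SE 0.20, adjusted p = 0.0913). It passed under 5 of 16 alternatives, and over all of them its adjusted p ran from 4.54e-06 to 0.753. Ctsg had -0.52 (SE 0.16, adjusted p = 0.214) and Ms4a3 -0.34 (SE 0.12, adjusted p = 0.253). Cebpe, which the rule fixes, stood at 679, 647, 572 and 588 CPM and is not tested. The 3 other markers were lower in both enhancer-deleted libraries without passing.

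Of 21 primary granule genes tested, 1 fell (Cd63) and none rose, where 0.312% of all genes fell and 0.113% rose. At an unadjusted p under 0.05, 14 of the 21 were lower, where 7.48% of all genes were. The list's median log2 fold change was -0.52, beside 0.00 for all genes tested. Srgn, the proteoglycan that packs granule proteases, stood at 2518, 2307, 1475 and 1750 CPM (adjusted p = 0.0618), and Serpinb1a, an inhibitor of elastase, at 713, 630, 441 and 431 CPM (adjusted p = 0.0618). Of 14 genes tested from the secondary and tertiary granule list, 2 fell (the stefin genes Stfa1 and BC100530, whose values are uncertain). At an unadjusted p under 0.05, 9 of the 14 were lower. None rose, and the median was -0.83. All 19 measured genes of the list, with the limited genes Camp, Ngp and Lcn2, summed to 14193.5, 11798, 10389 and 8930 CPM in F, I, A and B. Of 13 granulocyte regulators tested none passed, 4 were lower at an unadjusted p under 0.05, and the median was -0.34. Gfi1 was among them, at 44.1, 45.3, 25.1 and 25.4 CPM (log2 -0.93, adjusted p = 0.262), as was the progenitor factor Myb at 224, 228, 181 and 148 CPM (adjusted p = 0.196).

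In the other lists at most 1 gene passed, where 0.425% of all genes tested did. Of 13 monocyte markers tested only Irf8 passed, with a list median of 0.26. Of 4 basophil and mast cell markers Hdc fell, while Mcpt8, a mast cell and basophil protease, stood at 11.98, 13.01, 35.1 and 46.5 CPM without passing (adjusted p = 0.122). Among 6 interferon-induced genes 1 rose (Ifitm3). None of 27 S phase genes passed, and 6 were higher at an unadjusted p under 0.05, where 6.77% of all genes were. Tyms, thymidylate synthase, was at 114, 135, 181 and 220 CPM (adjusted p = 0.136). None of 84 ribosomal protein genes, 29 secretory and folding genes, 29 G2/M genes, 18 receptor genes, 7 NADPH oxidase genes or 10 mitochondrial genes passed edgeR's test. At an unadjusted p under 0.05, 21 of the 84 ribosomal protein genes were lower and none higher, where 7.48% of all genes were lower and 6.77% higher. Their median log2 fold change was -0.24, -0.13 with library totals (17 lower and 1 higher), and DESeq2 called 3 of them. The lists of erythroid, megakaryocyte, stem cell, lymphoid, dendritic, stromal, macrophage, eosinophil and immediate early genes had 8 or fewer members tested each, and none passed.

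Irf8 was found in more of the enhancer-deleted Cebpe-high cells. It had at least 1 UMI in 14.8% of cells in library F, 21.1% in I, 58.6% in A and 36.1% in B, although cells of A and B were shallower. At 4346 UMIs per cell the shares were 7.46% (95% exact binomial interval 5.22 to 10.3%) and 10.0% (6.58 to 14.4%) in F and I, against 43.5% (23.2 to 65.5%) and 34.6% (17.2 to 55.7%) in A and B. These rest on 34, 25, 10 and 9 cells. Erythroid cells of the wild type, which should lack Irf8, gave 1.72% at the same depth. Libraries A and B held 1 erythroid cell each, so the share that free RNA can give was not measured there. Irf8 at 4 or more UMIs per 10000, the limit that defines Irf8-high cells here, was reached by 8 and 5 Cebpe-high cells in F and I (1.67% and 1.99%) and by 7 cells each in A and B (24.1% and 19.4%). The sum of the 19 monocyte markers, Irf8 among them, was 1037, 1060, 1931 and 1159 CPM in F, I, A and B, and 1, 0, 3 and 2 of the markers were at 0. The part of monocyte transcripts in the Irf8 difference was not tested.

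Irf8 was also read in bands of the Cebpe level, the rule's own gene, with no test between bands. Between 4 and 6 Cebpe UMIs per 10000, Irf8 stood at 41.6 and 44.9 CPM in F and I and at 235 and 202 CPM in A and B. Between 6 and 8, it stood at 22.2 and 14.9 CPM in F and I, at 208 CPM in A (8 UMIs in 5 cells), and B held 0 Irf8 UMIs in 4 cells. At 8 or more, it stood at 24.7 and 28.4 CPM in F and I, and A and B held 1 Irf8 UMI each in 4 and 10 cells, under the level of 3 UMIs. The fitted log2 fold change at that limit was -0.12 (adjusted p = 0.985), and a difference could not be detected at this depth. In the wild type, cells with Irf8 held less S100a9, the other calprotectin subunit (551 and 786 CPM, against 3173 and 1838 CPM without Irf8), and less Gfi1 (23.2 and 30.7 against 48.5 and 49.8 CPM). They held more Ly6c2, a surface protein of monocytes and their progenitors (668 and 482 against 294 and 253 CPM). In A and B, Gfi1 stood at 50.4 and 35.1 CPM in cells without Irf8, from 4 and 5 UMIs. Without the cells that had an Irf8 UMI, a restriction chosen after seeing the data, 34 genes passed. Irf8 itself cannot be tested there, and 10 of the other 14 genes were among those that passed.

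The genotype difference was set against that in Mpo-high cells, which lack Cebpe and Irf8 UMIs, by the interaction of population and genotype. A shallow cell lacks such UMIs more easily, and cells of A and B were shallower. The choice of Mpo-high cells therefore depends on depth. Its part in the differences was not tested apart from the thinned cells given below. Of 3504 genes tested, 23 differed (0.656%), 6 with a higher (0.171%) and 17 with a lower difference (0.485%) in Cebpe-high cells. With library totals 9 were higher and 8 lower, and with DESeq2 size factors 7 and 12. Of 20 genes tested from the primary granule list 5 were lower (Prtn3, Clec12a, Ms4a3, Slpi and Ctsg). The list's median was -0.39, beside -0.02 for all genes. This list also holds genes of membrane proteins, Clec12a and Ms4a3 among them. Clec12a, an inhibitory lectin receptor of myeloid cells, stood at 426 and 417 CPM in Cebpe-high cells of F and I and at 286 and 245 CPM in A and B. In Mpo-high cells it went the other way, from 64.7 and 57.3 to 105 and 108 CPM (interaction log2 -1.57, SE 0.26, edgeR adjusted p = 0.000153). Ms4a3 differed in the same sense (interaction log2 -0.80, SE 0.14, adjusted p = 0.00055), as did Prtn3 (-0.48, SE 0.06, adjusted p = 7.08e-07). In cells thinned to 4346 UMIs these values were 0.50 for Ms4a3 (adjusted p = 0.0279) and 0.07 for Prtn3 (adjusted p = 0.789), so the direction of both turned in thinned cells. Tmsb4x, Clec12a, Fabp5, Mif and Hist1h1b did not pass in thinned cells (adjusted p = 0.0602, 0.307, 0.083, 0.199 and 0.238).

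Tmsb4x, the actin-binding thymosin gene, and the elongation factor gene Eef1a1 also had lower differences in Cebpe-high cells (interaction log2 -0.53, adjusted p = 1.99e-10, and -0.32, adjusted p = 0.00095). Tmsb4x was at 10498, 9440.01, 9547 and 9285 CPM in Cebpe-high cells of F, I, A and B, and at 5793, 4827, 7173 and 6564 CPM in Mpo-high cells. Fabp5 (interaction log2 1.07, SE 0.19, adjusted p = 0.000356) and Mif, a cytokine gene (0.44, SE 0.09, adjusted p = 0.00272), had higher differences. Fabp5 stood at 398, 371, 499 and 573 CPM in Mpo-high cells of F, I, A and B. Hist1h1b, a linker histone (1.60), the mitochondrial chaperonin gene Hspe1 (0.45) and Ifitm3 (1.17) completed the 5 with the smallest p. Without library F 3 genes passed, 2 of them among the 23, and without I 3 passed, all among the 23. Without B 5 passed, 4 of them among the 23, and without A 15, of which 11 were. DESeq2 called 2, both among the 23, and in thinned cells 29 passed, 8 of them among the 23.

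Against Irf8-high cells without Cebpe (253, 128, 539 and 635 cells in F, I, A and B), the genotype difference of many more genes differed. Of 3569 genes tested, 307 passed (8.60%), 112 with a higher (3.14%) and 195 with a lower difference (5.46%) in Cebpe-high cells. The choice of Irf8-high cells also depends on depth, because they must lack a Cebpe UMI. In thinned cells 338 genes passed, 219 of them among the 307. S100a8 was at 427 and 378 CPM in wild-type Irf8-high cells and at 84.9 and 27.9 CPM in enhancer-deleted ones, while it stayed between 3805 and 5549 CPM in Cebpe-high cells. The interaction was 2.52 (SE 0.16, adjusted p = 4.02e-10). S100a9 behaved alike, at 67.0, 49.3, 13.8 and 4.12 CPM in Irf8-high cells of F, I, A and B (interaction 2.53, SE 0.28, adjusted p = 1.4e-06). In Cebpe-high cells S100a9 stood at 2715, 1591, 1831 and 2338 CPM, where the genotypes overlapped. In all cells that were not Cebpe-high, S100a8 stood at 2203, 1254, 176 and 67.7 CPM in F, I, A and B. The part of free RNA in the S100a8 and S100a9 levels of Irf8-high cells was not tested. Hspe1, Fabp5 and Mif also had higher differences, at 0.84, 1.31 and 0.61.

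Of 84 ribosomal protein genes tested against Irf8-high cells, 61 had a lower and 1 a higher difference in Cebpe-high cells. Among all genes tested 5.46% were lower and 3.14% higher. The list's median was -0.31, beside -0.01 for all genes. With library totals 35 were lower and 1 higher, and the list's median was -0.15. Eef1a1 stood at 7157 and 6526 CPM in Cebpe-high cells of F and I and at 4686 and 5002 CPM in A and B. In Irf8-high cells it stood at 5589 and 5600 CPM in F and I and at 7081 and 6670 CPM in A and B (interaction -0.95, SE 0.07, adjusted p = 2.79e-09). Eef2 (-1.24), Rps4x (-0.64) and Rpl3 (-0.73) followed the same pattern, lower in Cebpe-high and higher in Irf8-high cells of the enhancer-deleted libraries. The sum of the ribosomal protein genes was 375891, 358000, 345400 and 322713 CPM in Cebpe-high cells of F, I, A and B. With library totals in place of TMM, 278 of 385 calls were higher and 107 lower, and the median of all genes moved from -0.01 to 0.15.

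Granule and folding genes split in this comparison, in which 3.14% of all genes were higher and 5.46% lower. Of 21 primary granule genes 10 had a lower difference in Cebpe-high cells and 1 a higher one, with Cd63 (-1.31, adjusted p = 1e-06) and Srgn (-0.78, adjusted p = 2.28e-05) lower and the granule protease activator Ctsc (1.46, adjusted p = 0.00361) higher. Of 15 secondary and tertiary granule genes 4 were higher (S100a8, S100a9, Fcnb and Gm5483) and 2 lower (Anxa1 and Pglyrp1). Of 29 secretory and folding genes 6 were higher and none lower. With library totals the counts were 2 higher and 8 lower for primary granule, 4 and 0 for secondary and tertiary granule, 7 and 0 for secretory and folding, 0 and 4 for mitochondrially encoded and 1 and 35 for ribosomal protein genes. Hspa5, the chaperone BiP, stood at 384 and 538 CPM in Cebpe-high cells of F and I and 677 and 575 CPM in A and B. In Irf8-high cells Hspa5 stood at 382 and 483 CPM against 262 and 306 CPM (interaction 0.89, SE 0.14, adjusted p = 8.39e-05). Of 10 mitochondrially encoded genes 6 had a lower difference in Cebpe-high cells, mt-Co1 with -0.43. Of 18 monocyte markers tested, Ly6c2 alone passed (1.32, adjusted p = 0.000183), at 360, 306, 788 and 207 CPM in Cebpe-high cells of F, I, A and B, where library A stood apart from B.

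**Figure D5:**
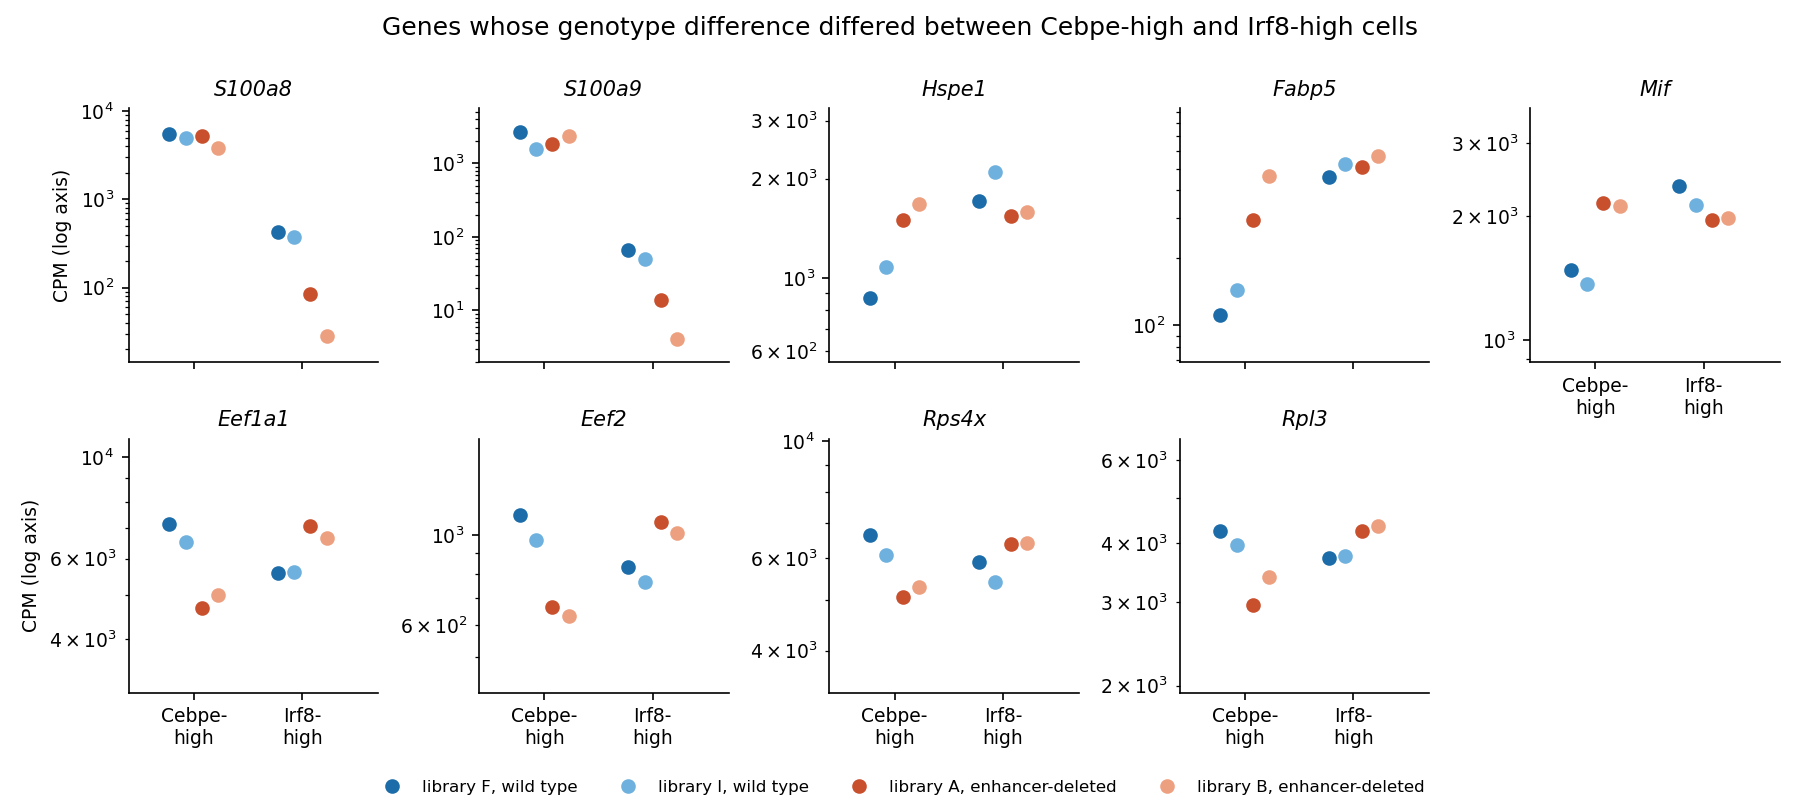
Levels (CPM, log axis with a separate range for each gene) in Cebpe-high and Irf8-high cells, 1 point per library, for the 5 genes with a higher and 4 with a lower difference in Cebpe-high cells that are named for the population by genotype interaction. S100a8 and S100a9 are lower in Irf8-high cells of the enhancer-deleted libraries and overlap between genotypes in Cebpe-high cells, and Eef1a1, Eef2, Rps4x and Rpl3 are lower in Cebpe-high and higher in Irf8-high cells of these libraries.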

How the data were processed

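RNA of single sorted progenitors was measured in 2 libraries per genotype. Per the submitters' processing notes, the tools included Cell Ranger 2.0.2 and Seurat 2.3.4, with genome build mm10. The authors deposited counts, whole UMIs of 3624 genes in 9960 cells, 4980 from each genotype. The criteria behind this choice of genes and cells, and the aligner settings, are not given in the sources used here. Library letters and genotypes come from a deposited list of cells, whose order was taken to be that of the count columns. In that order Xist was at 0.0249 and 0 CPM in libraries F and A and at 492 and 410 CPM in I and B. Cell barcodes were not analysed here, and no doublet caller was run.

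The members and gene lists were chosen with earlier results of these data known. UMIs were summed over the cells of a library, filtered with filterByExpr, scaled by TMM and tested two-sided with edgeR's quasi-likelihood test (edgeR 4.0.16 under R 4.3.3). P-values were adjusted by Benjamini-Hochberg over all genes tested, at a threshold of 0.05. A positive log2 value means more transcript without the enhancer, and SE is that of the fitted value. Interactions had the library as a factor. The 7 genes of the rule, and Mpo or Irf8 where they define a population, were not tested. Named are the markers and rule genes, the 10 largest rises and falls past the threshold with at least 20 CPM and no overlap, up to 4 genes of each list with the smallest p, and 5 genes per direction of each interaction, of which 1 is not reported here. Lists cover regulators, granule, NADPH oxidase, receptor, secretory, cell cycle, interferon, immediate early, ribosomal and mitochondrial genes and markers of other lineages. Other genes named, such as those near the limits of the rule, were chosen after their values were seen. Coordinates are from the GENCODE annotation of mm10. The fits were tested on simulated data. Other settings tried were library totals, DESeq2 size factors, the Wald test of DESeq2 1.42.0, no filter, each library left out, thinned cells, other limits of the rule, equal cells and an Xist term. Restrictions on Cebpe UMIs and on Irf8 were added after the data had been seen.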

Additional observations from a re-analysis of the deposited data

Results flagged for a closer look

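In 19 cases the difference between genotypes itself differed between Cebpe-high cells and a neighbouring population, by edgeR's test of the interaction. Values are interaction terms on the log2 scale, and positive ones mean a higher difference, enhancer-deleted over wild type, in Cebpe-high cells. Against Mpo-high cells the terms were 1.07 for Fabp5, 0.44 for Mif, 1.60 for Hist1h1b, 0.45 for Hspe1 and 1.17 for Ifitm3. On the other side they were -0.53 for Tmsb4x, -0.48 for Prtn3, -1.57 for Clec12a, -0.80 for Ms4a3 and -0.32 for Eef1a1. In thinned cells the terms of Prtn3 and Ms4a3 turned positive, and Tmsb4x, Clec12a, Fabp5, Mif and Hist1h1b did not pass. DESeq2's Wald test called 2 genes against Mpo-high cells, Tmsb4x and Prtn3, so the other terms named here did not pass it. Against Irf8-high cells the terms were 2.52 for S100a8, 0.84 for Hspe1, 2.53 for S100a9, 1.31 for Fabp5 and 0.61 for Mif. On the lower side they were -0.95 for Eef1a1, -1.24 for Eef2, -0.64 for Rps4x and -0.73 for Rpl3.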

How the results depend on the processing

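No paired analysis was possible because the deposited library letters are not tied to the replicate numbers of the labels. The share of Cebpe-high cells was 11.0-fold lower in the enhancer-deleted libraries. The fold was 8.47 with thinned cells, 5.46 and 12.97 with Cebpe limits of 2 and 8 UMIs per 10000, 13.7 with at least 3 Cebpe UMIs, and 9.93 to 12.1 with 1 library left out.

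Within Cebpe-high cells 15 genes passed. The count was 143 and 4 with Cebpe limits of 2 and 8, 34 with the DESeq2 Wald test, 8 with the Xist term, 37 with 29 cells per library, 53 with library totals (29 higher and 24 lower, the median gene moving by 0.11), 34 without cells with Irf8, 23 without the filter and 23 with thinned cells. With 1 library left out it ran from 0 to 170. With the Cebpe limit of 8, 1 of the 15 genes was among the 4 that passed, and 13 kept their direction. Irf8 stood at -0.12 at that limit (edgeR adjusted p = 0.985), from counts under the level of 3 UMIs in A and B. A difference in Irf8 could not be detected at this depth. Against Mpo-high cells 23 genes passed, and the count was 48 and 3 with Cebpe limits of 2 and 8, 2 with DESeq2, 12 with limits per 10000 UMIs and 3 to 15 with 1 library left out. Thinned cells turned Prtn3 to 0.066 and Ms4a3 to 0.50, and split the calls into 15 higher and 14 lower. With library totals 9 were higher and 8 lower, and with DESeq2 size factors 7 and 12. Against Irf8-high cells 307 genes passed, and 702 and 46 did so with Cebpe limits of 2 and 8, 177 with DESeq2 and 222 to 329 with 1 library left out. The causes were not tested. At the limit of 8, fewer cells enter and those that do hold more Cebpe. Only 65 enhancer-deleted cells, of 199337 and 236507 UMIs in all, limit every comparison within Cebpe-high cells.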
